A study of Mus musculus with 2 samples.

Results

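The 10 genes described here are the core circadian clock genes Per1, Per2, Per3, Cry1, Cry2, Arntl, Clock, Nr1d1, Nr1d2 and Dbp, measured by single-cell RNA sequencing in cells of the mouse adrenal cortex. They were taken by symbol, and each matched 1 of the 31057 features counted in both libraries. The cells came from adrenals of 15-week-old male mice with the genotype WT, SF1-Cre ; Rosa mTmG, in which Cre driven by SF1 regulatory sequence, active in the steroid-producing lineage, switches a membrane reporter from red to green. In all, 26 adrenals were dissociated, and live single cells were sorted for uptake of a DNA dye. The labels name no sort on the green reporter. Both libraries, numbered 1 and 2 here, carry the same genotype, sex and age, so they are 2 replicates of 1 group, and the study has no treated or mutant group. Their titles end in Iso20 and Iso21, which the labels do not explain. The labels give neither the time of day of collection nor which animals went into which library.

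The circadian clock is a feedback loop of transcription that runs with a period of about a day in nearly every cell type. The proteins Arntl (also called Bmal1) and Clock bind E-box sequences together and switch on the Per and Cry genes, whose proteins return to the nucleus and repress Arntl and Clock. The same pair drives Nr1d1 and Nr1d2, nuclear receptors that repress Arntl, and Dbp, a transcription factor that acts through D-box sequences on output genes. When the loop runs, transcripts of Arntl and of Dbp peak at opposite times of day. In the adrenal cortex the clock is known for the daily rhythm of glucocorticoid output and for the gating of the response to corticotropin.

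The cortex is layered. The outer zona glomerulosa makes aldosterone with Cyp11b2, the zona fasciculata makes glucocorticoid with Cyp11b1, and Aldh1a1, an enzyme that oxidises retinaldehyde, marks cells of the inner cortex. Cells were grouped by these 3 transcripts alone, which are therefore not reported as results. Values are given as CPM, counts scaled to a common total of UMIs, a UMI being a molecular tag that counts 1 captured transcript. Cells with at least 500 CPM of Aldh1a1 were called Aldh1a1-high. Of the rest, Cyp11b2-high cells had at least 200 CPM of Cyp11b2 and under 300 CPM of Cyp11b1, and Cyp11b1-high cells had at least 1000 CPM of Cyp11b1 and under 200 CPM of Cyp11b2. Co-expressing cells had at least 200 CPM of Cyp11b2 and at least 300 CPM of Cyp11b1, intermediate cells had from 300 to under 1000 CPM of Cyp11b1, and the others were low in both.

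The promoters of 4 members are printed first because they hold letters that the clock proteins are known to read and had the widest range of levels. That range was taken over the 12 sums of cell group and library given below, so it includes differences between the libraries. Its low end for Per1, 6.065 CPM, was a sum of 5 UMIs in co-expressing cells of library 1. Each sequence is the 250 bases upstream of an annotated RefSeq start on build GRCm38.p6, 5′ to 3′ on the strand of the gene, in lower case with matched motifs in capitals. The motifs searched on both strands were the E-box CACGTG, the E-prime box CACGTT (whose reverse complement reads AACGTG), the D-box TTATGTAA, the core of the element bound by Nr1d1, TAGGTCA, and the cAMP response element TGACGTCA.
Cry1, chr10:85185055-85185304, minus strand: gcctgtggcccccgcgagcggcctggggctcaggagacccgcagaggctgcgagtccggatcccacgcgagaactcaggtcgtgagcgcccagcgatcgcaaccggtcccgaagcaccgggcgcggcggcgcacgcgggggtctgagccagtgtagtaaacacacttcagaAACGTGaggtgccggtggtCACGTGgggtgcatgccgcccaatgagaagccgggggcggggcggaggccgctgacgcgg
Nr1d1, chr11:98775378-98775627, minus strand: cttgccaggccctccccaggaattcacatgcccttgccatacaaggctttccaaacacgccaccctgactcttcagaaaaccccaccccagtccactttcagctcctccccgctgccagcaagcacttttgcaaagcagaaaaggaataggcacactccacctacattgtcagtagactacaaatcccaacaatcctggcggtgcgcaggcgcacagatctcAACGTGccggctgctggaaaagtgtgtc
Per3, chr4:151044666-151044915, minus strand: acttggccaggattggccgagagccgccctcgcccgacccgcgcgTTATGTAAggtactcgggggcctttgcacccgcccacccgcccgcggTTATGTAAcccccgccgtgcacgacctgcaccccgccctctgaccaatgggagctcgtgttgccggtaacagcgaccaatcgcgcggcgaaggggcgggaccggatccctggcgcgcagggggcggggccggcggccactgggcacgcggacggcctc
Per1, chr11:69098699-69098948, plus strand: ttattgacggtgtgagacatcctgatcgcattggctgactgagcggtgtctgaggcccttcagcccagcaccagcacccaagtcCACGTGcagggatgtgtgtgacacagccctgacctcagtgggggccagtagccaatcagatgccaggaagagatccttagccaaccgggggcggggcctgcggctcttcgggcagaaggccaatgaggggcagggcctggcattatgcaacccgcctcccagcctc
In Cry1 the E-box began 60 bases before the start and the E-prime box 79 bases before it. Nr1d1 had an E-prime box 28 bases before its start, Per3 had 2 D-boxes at 205 and 158 bases, and the first of the Per1 windows had an E-box at 166 bases. Of the 9 members with a promoter in the table, 5 held a motif in at least 1 of their 13 windows, the fifth being Cry2 with an E-prime box at 166 bases. No motif matched in these windows of Arntl, Clock, Nr1d2 or Dbp, and Per2 had no entry. Among all 32851 mouse windows of this length, 6.02% held the E-box, 3.85% the E-prime box, 0.819% the D-box, 2.23% the TAGGTCA core and 1.55% the cAMP response element. These shares are per motif and per window, so 5 of 9 members with any motif has no like background here. A match describes the letters and does not show binding.

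The libraries held 5040 and 2288 cell barcodes with 92905273 and 28023733 UMIs in all. After filtering, 4365 and 1600 cortical cells remained, with medians of 18629 and 16161 UMIs, and 80 leukocyte-like cells were set aside. Only 4 barcodes occurred in both libraries. Transcripts of 5 genes of steroid-producing cells (Nr5a1, Star, Cyp11a1, Hsd3b1 and Scarb1) summed to 10880 and 10720 CPM in the cortical cells, and the chromaffin genes Th, Dbh and Pnmt were at 0 UMIs in all 6 cell groups. The libraries stood apart in stress readouts, since 48.3% of cortical cells in library 1 and 70.5% in library 2 held a UMI of Fos, Fosb, Egr1, Atf3 or Nr4a1. Across both libraries there were 699 Cyp11b2-high cells, 51 co-expressing cells, 3838 cells low in both, 633 intermediate cells, 690 Cyp11b1-high cells and 54 Aldh1a1-high cells. The small groups limit the counts, with 28 and 26 Aldh1a1-high cells and 34 and 17 co-expressing cells in libraries 1 and 2.

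All 10 members were detected in all 6 groups of both libraries and passed the filter on low counts. For each gene, UMIs were summed over the cells of a group within a library, giving 12 sums, which were scaled to CPM by edgeR's TMM factors. Cry1 had the widest range over these sums, from 4.87 to 34.8 CPM, followed by Nr1d1, from 43.2 to 139.7 CPM. Nr1d2, from 44.7 to 77.0 CPM, and Arntl, from 19.5 to 35.5 CPM, had the narrowest.

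**Figure D1:**
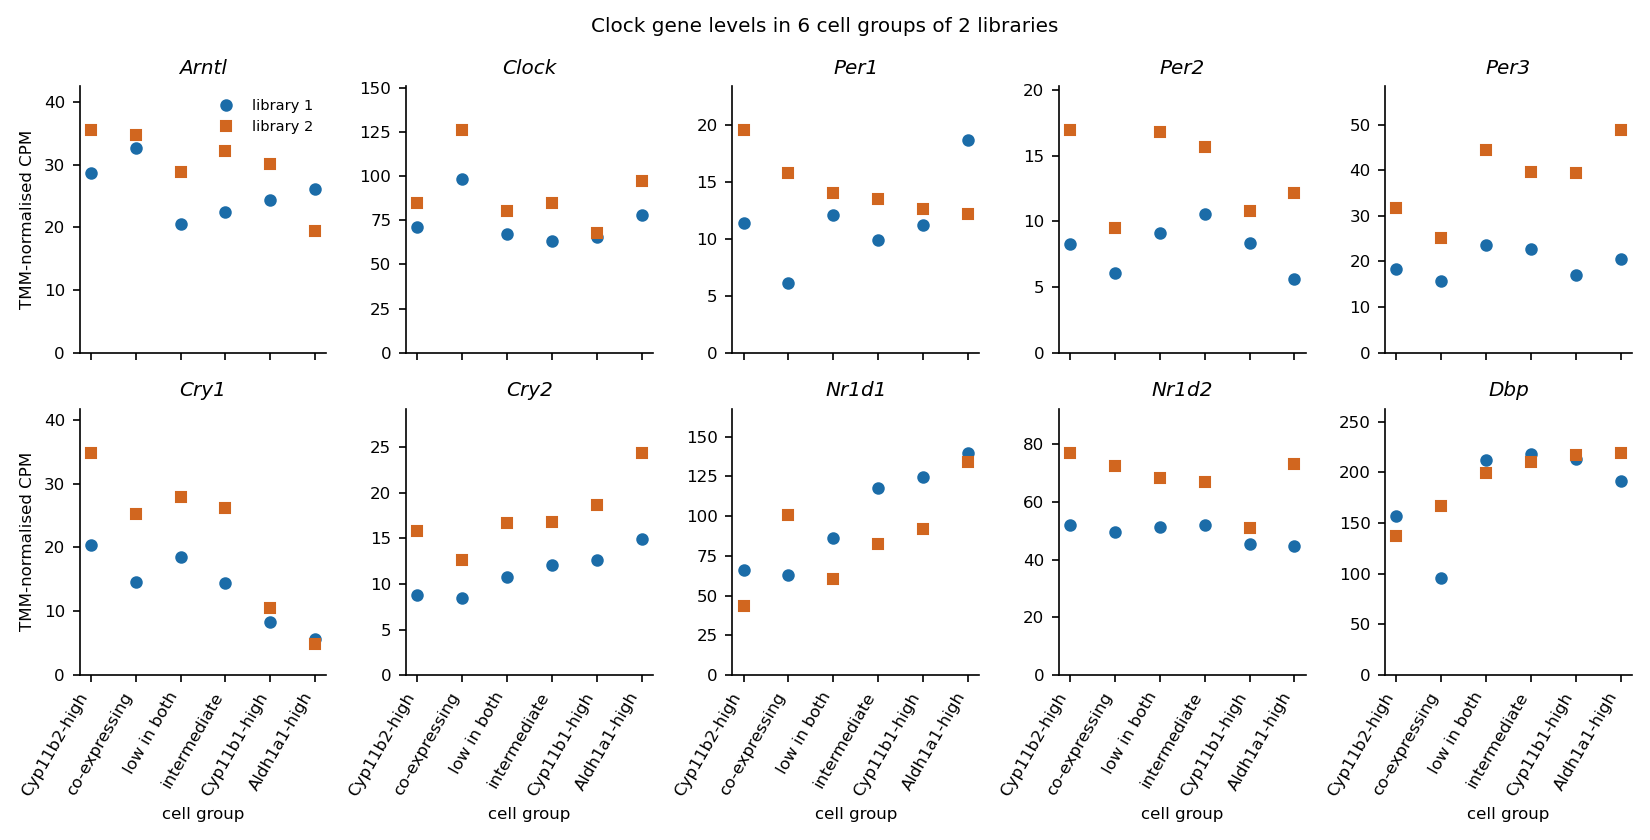
TMM-scaled CPM of each of the 10 clock genes on linear axes from 0, in the 6 cell groups on the x axis, with circles for library 1 and squares for library 2. Cry1 is at 20.4 and 34.8 CPM in Cyp11b2-high cells and at 8.35 and 10.6 CPM in Cyp11b1-high cells, and Nr1d1 runs the other way, from 66.1 and 43.2 CPM to 124.9 and 92.1 CPM.

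The first comparison asked whether the clock genes differ between cells with the transcript for aldosterone synthesis and cells with the transcript for glucocorticoid synthesis. Nr1d1 and Dbp were higher in Cyp11b1-high than in Cyp11b2-high cells, Cry1 and Nr1d2 were lower, and the other 6 members did not pass the test. So 4 of 10 members were called by edgeR's quasi-likelihood test with Benjamini-Hochberg adjustment at 0.05, where 33.0% of the 11774 genes tested were called, 15.3% as higher and 17.8% as lower. A share of 4 in 10 is near that background. The p-values measure how far differences varied between these 2 libraries, which may be technical. The spread of each gene was fitted over all 6 groups and drawn toward that of all genes. The latter had a weight of 15.9 degrees of freedom, against 5 from the gene itself.

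Among the repressors, Cry1 had the largest difference of the 10. It measured 20.4 and 34.8 CPM in Cyp11b2-high cells of libraries 1 and 2, 18.4 and 28.0 CPM in cells low in both, 14.4 and 26.2 CPM in intermediate cells and 8.35 and 10.6 CPM in Cyp11b1-high cells. Both Cyp11b1-high values lay below both Cyp11b2-high values, and the order of these 4 groups was the same in both libraries. The log2 difference of Cyp11b1-high from Cyp11b2-high cells was -1.49 ± 0.16 (SE, n = 2 libraries, edgeR adjusted p = 1.59e-07). Its paralog Cry2 measured 8.76 and 15.8 CPM in Cyp11b2-high cells and 12.6 and 18.7 CPM in Cyp11b1-high cells. The Cry2 groups overlapped across libraries, and the log2 difference of 0.39 ± 0.16 did not pass (edgeR adjusted p = 0.0681), although it did when doublet candidates were kept (0.0497) or cells with as few as 1000 UMIs entered (0.0476).

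The Period genes, the partners of the cryptochromes in repression, did not pass the test. Per1 measured 11.3 and 19.5 CPM in Cyp11b2-high cells and 11.2 and 12.6 CPM in Cyp11b1-high cells, a log2 difference of -0.29 ± 0.19 (edgeR adjusted p = 0.266). The Per1 difference came from library 2, since the values of library 1 were nearly equal. Per2 had the same split, with 8.31 and 16.9 CPM against 8.35 and 10.8 CPM, and a log2 difference of -0.31 ± 0.20 (edgeR adjusted p = 0.242). Per3 measured 18.3 and 31.8 CPM in Cyp11b2-high cells and 17.0 and 39.3 CPM in Cyp11b1-high cells (log2 difference 0.11 ± 0.13, edgeR adjusted p = 0.54). All 41014 bases of Per3 lie within Camta1 on the same strand, so reads of the 2 genes could be assigned to each other.

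Of the activators, neither passed. Arntl measured 28.6 and 35.5 CPM in Cyp11b2-high cells and 24.4 and 30.1 CPM in Cyp11b1-high cells, with a log2 difference of -0.24 ± 0.12 (edgeR adjusted p = 0.138). Clock measured 71.5 and 85.1 CPM against 65.8 and 67.9 CPM, with a log2 difference of -0.21 ± 0.09 (edgeR adjusted p = 0.0659). Both genes were lower in Cyp11b1-high cells in both libraries, by less than the test required. Clock passed with doublet candidates kept (0.0473) and with cells from 1000 UMIs (0.0426).

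The nuclear receptors of the stabilising loop moved in opposite directions. Nr1d1 measured 66.1 and 43.2 CPM in Cyp11b2-high cells and 124.9 and 92.1 CPM in Cyp11b1-high cells, and intermediate cells lay between them in library 1 and library 2 at 117.5 and 82.2 CPM. The groups did not overlap, and the log2 difference was 0.97 ± 0.10 (edgeR adjusted p = 1.39e-07). Nr1d2 measured 52.2 and 77.0 CPM in Cyp11b2-high cells and 45.3 and 51.0 CPM in Cyp11b1-high cells, a log2 difference of -0.38 ± 0.10 (edgeR adjusted p = 0.00434). That of Nr1d2 was -0.18 in library 1 and -0.58 in library 2, and the call was lost in cells with no early response UMI (log2 difference -0.20, edgeR adjusted p = 0.429). Nr1d1 overlaps the antisense gene Thra, a thyroid hormone receptor, by 1075 bases, and the sources used here do not state whether the authors counted by strand. Thra was also higher, by 0.57 ± 0.10 on the log2 scale (edgeR adjusted p = 7.53e-05).

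Dbp, the output factor, measured 156.9 and 137.3 CPM in Cyp11b2-high cells, 212.7 and 199.8 CPM in cells low in both and 213.3 and 217.5 CPM in Cyp11b1-high cells. The Cyp11b2-high values lay below all values of those other two groups. The log2 difference of Cyp11b1-high from Cyp11b2-high cells was 0.53 ± 0.08 (edgeR adjusted p = 1.57e-05). Dbp overlaps the antisense gene Sphk2 by 737 bases.

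Other features moved with the Cyp11b1-high group. Transcripts of 4 haemoglobin genes summed to 1428 and 1023 CPM in Cyp11b1-high cells and to 24.0 CPM in Cyp11b2-high cells of library 1, and none was counted in those of library 2, which allows up to 0.716 CPM at a limit of 3 UMIs. In cells with no haemoglobin UMI the log2 differences were 0.97 for Nr1d1, -1.47 for Cry1, 0.53 for Dbp and -0.36 for Nr1d2, with edgeR adjusted p from 5.19e-08 to 0.00858. The nuclear RNA Malat1 was at 30300 and 39970 CPM in Cyp11b1-high and at 20840 and 26710 CPM in Cyp11b2-high cells, and the median mitochondrial share was 5.31% and 4.75% against 7.27% and 7.23%. Of 4 endothelial genes, Kdr gave nearly all of a sum of 14.2 and 9.79 CPM in Cyp11b1-high and 1.49 and 0.955 CPM in Cyp11b2-high cells, and Pecam1, Cdh5 and Emcn were at or near 0. The part of Malat1, of the mitochondrial share and of Kdr in the differences was not tested.

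**Figure D2:**
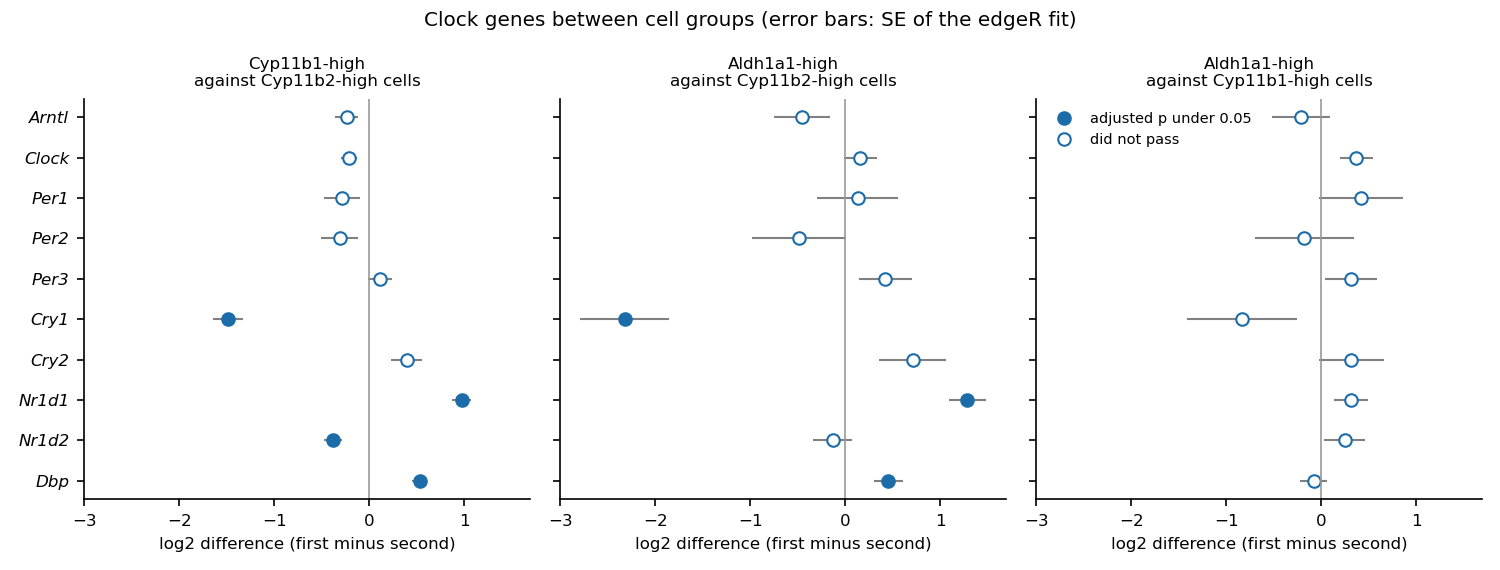
Log2 differences of the 10 clock genes in 3 contrasts of cell groups, as points with standard errors from edgeR, with filled points for genes past the threshold of 0.05. Nr1d1 (0.97) and Dbp (0.53) lie above 0 and Cry1 (-1.49) and Nr1d2 (-0.38) below it in Cyp11b1-high against Cyp11b2-high cells, and none of the 10 is filled in Aldh1a1-high against Cyp11b1-high cells.

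Aldh1a1-high cells were set against the same Cyp11b2-high sums, so these differences share that reference with those above. Nr1d1 was higher and Cry1 lower, with Dbp higher by a smaller step, and the other 7 members did not pass. The 3 of 10 called stand beside 27.9% of all genes, 13.0% higher and 15.0% lower. Of the genes called, 46.4% were higher with TMM scaling, 54.1% with RLE size factors and 58.8% with DESeq2. Nr1d1 was at 139.7 and 134.0 CPM, above every other sum, for a log2 difference of 1.29 ± 0.19 (edgeR adjusted p = 2.26e-05). Thra, on the other strand, was higher by 0.84 ± 0.19 (edgeR adjusted p = 0.00171). Malat1 was at 28880 and 57110 CPM in Aldh1a1-high cells, whose part in these differences was not tested, and haemoglobin transcripts summed to 1.82 and 0 CPM.

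Cry1 had only 3 and 2 UMIs in the Aldh1a1-high sums of libraries 1 and 2. Its ratio to Cyp11b2-high cells by counts was 0.302 (exact 95% interval from counting error 0.0618 to 0.898) and 0.137 (0.0164 to 0.503), and the fitted log2 difference was -2.32 ± 0.47 (edgeR adjusted p = 0.000638). When all cells were thinned to 5000 UMIs the Cry1 log2 difference was -1.45 and the call was lost (edgeR adjusted p = 0.204). Dbp was at 191.8 and 219.2 CPM, a log2 difference of 0.46 ± 0.15 (edgeR adjusted p = 0.0251), and lost its call with thinning (0.204) and with all cut-offs halved (log2 difference 0.20, edgeR adjusted p = 0.25). Arntl (-0.45), Clock (0.16), Per1 (0.13), Per2 (-0.49), Per3 (0.42), Cry2 (0.71) and Nr1d2 (-0.13) did not pass, with edgeR adjusted p from 0.158 to 0.868.

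Between Aldh1a1-high and Cyp11b1-high cells none of the 10 members passed edgeR's test or DESeq2's, where 14.5% of all genes passed edgeR's, 7.53% higher and 6.93% lower. Of the genes called, 52.1% were higher with TMM scaling, 61.6% with RLE size factors and 67.4% with DESeq2. At an unadjusted p under 0.05 there was 1 member, Clock, at 78.2 and 97.4 CPM against 65.8 and 67.9 CPM (log2 difference 0.37 ± 0.18, edgeR adjusted p = 0.182). The count ratio of Cry1 to Cyp11b1-high cells was 0.686 (0.138 to 2.1) in library 1 and 0.426 (0.0502 to 1.63) in library 2, so a difference was not detectable at this depth.

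Tested over all 6 groups at once, 6 members varied, beside 38.4% of all genes. These were Nr1d1 (edgeR adjusted p = 3.39e-07), Cry1 (1.02e-06), Dbp (7.56e-06), Clock (0.0121), Per3 (0.0144) and Arntl (0.0345). Clock was highest in the co-expressing cells, at 98.3 and 126.1 CPM, on 81 and 40 UMIs. Per3 was lowest in the same cells, at 15.8 and 25.2 CPM, and all its library 2 values lay above all its library 1 values. Arntl was lowest in cells low in both in library 1, at 20.6 CPM, and in Aldh1a1-high cells in library 2, at 19.5 CPM. Nr1d2, Cry2, Per2 and Per1 did not pass, with edgeR adjusted p of 0.0539, 0.214, 0.234 and 0.474.

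Other genes tied to the clock were read from a list of 19 components outside the core, of which 17 were tested. In Cyp11b1-high against Cyp11b2-high cells 4 rose and 3 fell (median log2 difference 0.16, beside -0.0047 over all genes tested). The largest was Nfil3, a repressor that competes with Dbp for D-boxes, at 32.4 and 44.1 CPM in Cyp11b2-high and 12.2 and 9.21 CPM in Cyp11b1-high cells, where it fell by 1.74 ± 0.19 on the log2 scale (edgeR adjusted p = 1.79e-07). Bhlhe40, a repressor at E-boxes, rose by 0.98 ± 0.29 (edgeR adjusted p = 0.0118). Of 5 output genes 2 fell (median -0.29), Noct by 0.99 ± 0.20 (edgeR adjusted p = 0.000595) and Usp2 by 0.96 ± 0.14 (edgeR adjusted p = 1.94e-05).

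The lists of signals that reach the clock in the adrenal cortex moved as follows in the same contrast. Of 8 glucocorticoid receptor targets 6 rose and none fell (median 0.55), led by Mt2, a metallothionein, which rose by 2.56 ± 0.16 (edgeR adjusted p = 8.44e-11). Of 10 genes of cAMP signalling 1 rose and 6 fell (median -0.58), among them Sik1, a kinase induced by cAMP, which fell by 2.61 ± 0.35 (edgeR adjusted p = 5.46e-06). Of 19 early response genes 7 rose and 5 fell (median 0.19), of 9 heat shock genes 2 rose and 2 fell (median -0.11), and of 8 steroid synthesis genes 3 rose and 2 fell (median 0.16). Each count stands beside 33.0% of all genes called.

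In Aldh1a1-high against Cyp11b2-high cells 4 of the 17 other clock components rose and 2 fell (median -0.06, beside -0.07 over all genes). Bhlhe40 was at 11.2 and 29.2 CPM against 3.26 and 4.87 CPM and rose by 2.27 ± 0.49 on the log2 scale (edgeR adjusted p = 0.00131). Bhlhe41, its paralog, rose by 1.23 ± 0.26 (edgeR adjusted p = 0.00085), and Arntl2, a paralog of Arntl, was at 1.86 and 14.6 CPM against 1.01 and 1.16 CPM (log2 difference 2.64 ± 0.84, edgeR adjusted p = 0.022). Arntl2 was thus high only in library 2, and its call rests on that library. Of 5 output genes 1 was called higher and 2 lower (median -0.97). Tef, a relative of Dbp, rose by 0.94 ± 0.23 (edgeR adjusted p = 0.00354), and Usp2 fell by 0.97 ± 0.34 (edgeR adjusted p = 0.039), from 54.1 and 43.6 CPM to 27.9 and 21.9 CPM. The other gene called lower was Hlf, the third of these related factors, with edgeR adjusted p = 0.0244. Hlf had no UMI in Aldh1a1-high cells of either library, and the limits of 3 UMIs, 5.46 and 7.36 CPM, exceeded its Cyp11b2-high levels of 4.96 and 6.21 CPM. No library alone could therefore show its fall, and no fold is given. Of 8 glucocorticoid receptor targets 4 rose and none fell, of 19 early response genes 2 rose and 7 fell, and of 10 cAMP genes none rose and 2 fell. Heat shock genes (9 tested) had 1 rise and 2 falls, and steroid synthesis genes (8 tested) 3 rises and 3 falls. These counts stand beside 27.9% of all genes called, 13.0% higher and 15.0% lower. In Aldh1a1-high against Cyp11b1-high cells, where 14.5% of all genes were called (7.53% higher and 6.93% lower), 2 of 17 other clock components were called higher and 2 lower. Of 5 output genes 1 was higher and 1 lower, the lower one being Hlf, again on 0 UMIs (edgeR adjusted p = 0.0156). Of 8 glucocorticoid receptor targets 4 were higher and 1 lower, and of 19 early response genes 2 and 5. Of 9 heat shock genes 1 was higher and 2 lower, and of 8 steroid synthesis genes 3 and 2.

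The libraries were then compared with each other over all cortical cells. With 1 library a side this has no replicate check and no test, and intervals cover counting error only. A difference between Iso20 and Iso21, whatever these mark, cannot be told apart from one between the libraries. The mix of cell groups also differed and enters the ratios. Cyp11b1-high cells made up 9.83% of cortical cells in library 1 and 16.3% in library 2, and cells low in both 67.0% and 57.1%. Library 2 held 25915125 cortical UMIs and library 1 held 85983766. The Period and cryptochrome genes were higher in it in CPM, Nr1d1 was lower and Dbp was within a factor of 1.11. Per3 was at 20.2 CPM in library 1 and 44.1 CPM in library 2, a ratio of 2.19 (exact 95% interval 2.03 to 2.36). Per2 went from 8.29 to 16.8 CPM (ratio 2.02), Cry2 from 9.93 to 18.2 CPM (1.83), Cry1 from 15.7 to 27.6 CPM (1.76), Arntl from 20.3 to 32.6 CPM (1.61) and Nr1d2 from 46.4 to 71.9 CPM (1.55). These 6 members were at least 1.5-fold higher in library 2, where 18.3% of 10046 genes of at least 5 CPM were, and 1.69% were lower by that fold. Among members of at least 20 CPM in 1 library the count was 4 of 7, beside 15.9% of 7009 genes.

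Per1 had a ratio of 1.48 and Clock of 1.40. Within Cyp11b1-high cells alone the ratio was lower for Cry1 (1.445), Per2 (1.475) and Nr1d2 (1.286), among others, and higher for Per3 (2.645) and Dbp (1.165). Over all cortical cells Dbp was at 187.9 and 208.4 CPM, a ratio of 1.11. Nr1d1 was the 1 member that was lower in library 2, at 83.4 and 71.6 CPM, a ratio of 0.859 (0.816 to 0.904). It was lower in 5 of the 6 cell groups and not in the co-expressing cells (1.82). In Aldh1a1-high cells the ratio was 0.988, with an interval (0.685 to 1.42) that included equal levels. All genes of at least 20 CPM had a median ratio of 1.15, so CPM itself was shifted. Relative to that median Per3 was 1.91, Per2 1.77, Cry2 1.60 and Cry1 1.54 times as high in library 2, while Nr1d1 was at 0.75 and Dbp at 0.969. With TMM factors, 3 members (Per3, Per2 and Cry2) reached 1.5-fold, and Dbp turned to a ratio of 0.91. Of those 3, Per3 alone had at least 20 CPM in 1 library, and 4.08% of all genes of that level reached that fold.

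**Figure D3:**
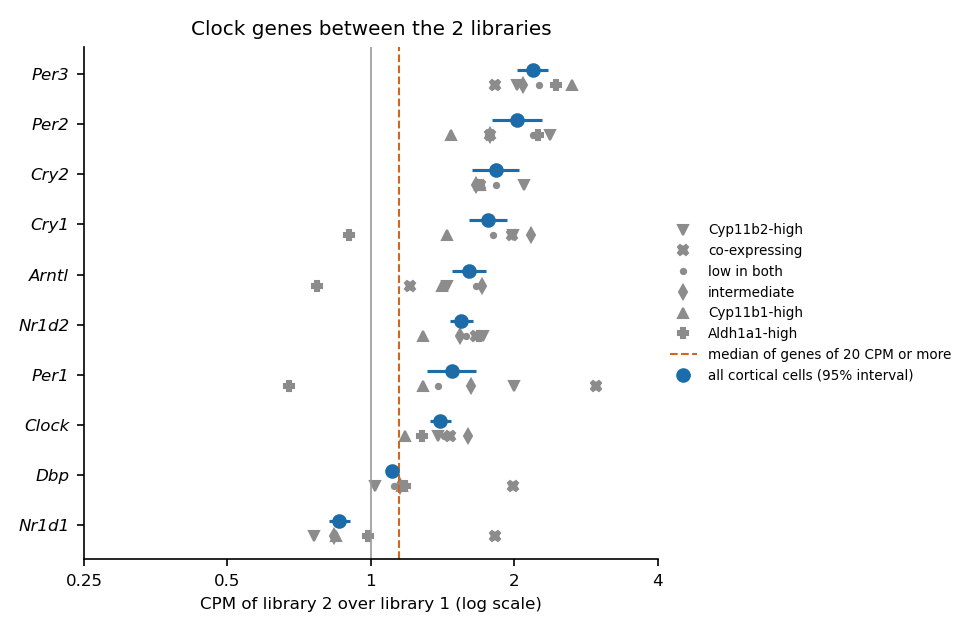
Ratio of library 2 to library 1 in CPM for the 10 clock genes on a log axis, as blue points for all cortical cells with exact 95% intervals from counting error and grey symbols for the 6 cell groups. Per3 (2.19) is highest, Nr1d1 (0.859) is the only member under 1, and the median of all genes of at least 20 CPM lies at 1.15.

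The libraries also differed in early response and heat shock genes. Of 14 early response genes of at least 20 CPM, 8 were at least 1.5-fold higher in library 2, led by Fosb (5.79), Fos (4.44) and Junb (2.29), and of 9 heat shock genes 3 were, Hspa1b (2.66), Hspa1a (2.44) and Hsph1 (2.23). In cells with no UMI of the 5 early response genes the ratio was 2.55 for Per3, 2.43 for Per2, 2.05 for Cry2, 1.70 for Cry1 and 0.944 for Nr1d1. Of the output genes 1 of 2 was higher (Tef, 2.02) and of the glucocorticoid receptor targets 1 of 6 (Fkbp5, 1.75), with Mt2 lower at 0.434. None of 8 steroid synthesis genes and none of 4 cAMP genes passed that fold.

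Among cells of the same library Dbp had the highest ratio of variance to mean of the 10, a ratio that can grow with the mean. After thinning each cell to 5000 UMIs, the variance of its count over cortical cells was 1.96 and 1.92 times its mean in libraries 1 and 2, where genes of like mean had medians of 1.07 and 1.09. Of the genes of like mean, 7 of 471 and 11 of 465 were higher. Arntl, at 1.11 and 1.28 times its mean, had 107 of 1407 and 34 of 1523 such genes above it, and Per3, at 1.19 and 1.32, had 42 of 1387 and 43 of 1450. A Dbp UMI was found in 45.8% and 48.8% of the thinned cortical cells and in 16.3% and 6.45% of the leukocyte-like cells. Unthinned, the shares were 70.3% and 68.3% against 20.4% and 9.68%, where leukocyte-like cells had medians of 9180 and 7333 UMIs. The leukocyte-like cells also held the 5 genes of steroid-producing cells at 5146 and 2582 CPM. Whether their Dbp UMIs came from free RNA was not tested. Across the 5965 cortical cells, Dbp counts had a Pearson r of 0.18 with Nr1d1, 0.149 with Per3, 0.14 with Nr1d2 and -0.155 with Arntl, and 41 of the 45 pairs of members lay within 0.1 of 0. These values are a description of sparse counts in cells that share a library.

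To see what went with Dbp, cells with at least 2 thinned Dbp UMIs were set beside cells with none. Both classes were taken from 4 cell groups (Cyp11b2-high, low in both, intermediate and Cyp11b1-high). Ratios, their intervals and gene counts are from UMIs summed over these 4 groups in each library. The mix of groups differed between the classes and so enters the ratios. Pairs of cell group and library compare the classes within 1 group. These classes were chosen after the values above were seen, they cut a continuous range and are no cell types, and no test was made. Of 5860 cells, 1516 had at least 2 Dbp UMIs after thinning and 3121 had none left. Cells with and without Dbp UMIs are named here by their thinned counts, while CPM are from full counts. In full counts the cells without still held 3045 and 695 Dbp UMIs in libraries 1 and 2. Cells with at least 2 made up 24.9% of library 1 and 28.5% of library 2, and 19.1% and 19.3% of Cyp11b2-high against 25.4% and 33.0% of Cyp11b1-high cells. Dbp itself, which defines the classes, was at 68.0 and 53.4 CPM in cells without and at 429.0 and 469.9 CPM in cells with these UMIs.

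Arntl ran opposite to Dbp. It was at 28.3 CPM in cells without Dbp UMIs and 7.76 CPM in cells with them in library 1, and at 50.3 and 9.04 CPM in library 2. Arntl was thus 3.65-fold lower (exact 95% interval 3.1 to 4.32) and 5.56-fold lower (4.3 to 7.31) in cells with at least 2 thinned Dbp UMIs, and lower in 8 of 8 pairs of cell group and library. Cry1 was lower as well over the summed groups, by 1.89-fold and 1.93-fold, from 19.3 to 10.2 CPM and from 35.1 to 18.2 CPM. It was lower in 7 of 8 pairs, by unequal steps. In cells low in both, Cry1 went from 20.9 to 9.71 CPM in library 1 and from 38.4 to 18.4 CPM in library 2. The step was smaller in library 1 in Cyp11b2-high cells (19.5 to 16.7 CPM) and intermediate cells (15.8 to 12.4 CPM). Clock had ratios of 0.828 and 0.825 and was lower in 8 of 8 pairs.

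The other members ran with Dbp. Per3 was at 14.0 and 31.4 CPM in cells without and with Dbp UMIs in library 1 and at 26.5 and 71.9 CPM in library 2, ratios of 2.24 (2.01 to 2.51) and 2.72 (2.37 to 3.12). Nr1d1 was at 60.1 and 120.8 CPM in library 1 and at 49.5 and 102.2 CPM in library 2, ratios of 2.01 and 2.06. Per2 had ratios of 1.85 and 2.08, Cry2 of 1.72 and 1.91 and Nr1d2 of 1.72 and 1.88. Each of these 5 genes was higher in 8 of 8 pairs of cell group and library. Per1, with ratios of 1.64 and 1.32, was higher in 7 of 8. Thra, which shares bases with Nr1d1, had ratios of 0.76 and 0.786, opposite to Nr1d1.

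The differences between cell groups were also seen among cells without Dbp UMIs. In those cells Nr1d1 was at 45.4 and 37.5 CPM in the Cyp11b2-high groups of libraries 1 and 2 and at 87.1 and 77.4 CPM in the Cyp11b1-high groups. In cells with Dbp UMIs Nr1d1 was at 93.9 and 66.1 CPM and at 152.3 and 122.9 CPM in the same order. So Nr1d1 was higher in Cyp11b1-high cells within each Dbp class and library. Cry1 in cells without Dbp UMIs was at 19.5 and 34.7 CPM in Cyp11b2-high cells and at 10.1 and 15.7 CPM in Cyp11b1-high cells. The 1 pair in which Cry1 was not lower with Dbp was the Cyp11b2-high group of library 2, at 34.7 and 40.4 CPM on 89 and 33 UMIs. The 1 pair in which Per1 was not higher was the Cyp11b2-high group of library 1, at 10.1 and 9.17 CPM on 65 and 17 UMIs.

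**Figure D4:**
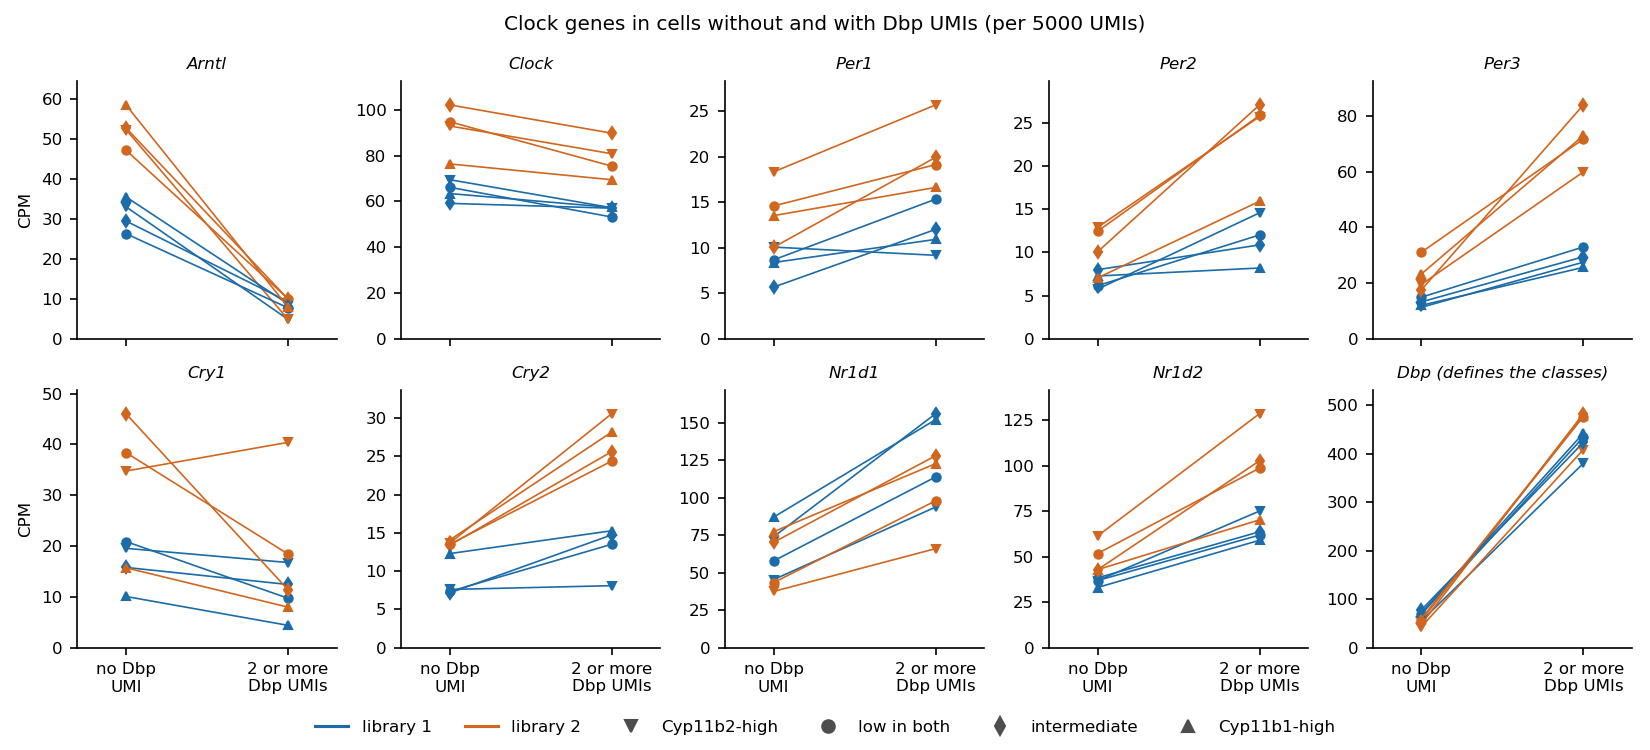
CPM of the 10 clock genes on linear axes from 0, in cells with no thinned Dbp UMI and in cells with at least 2, joined by a line for each of 4 cell groups (symbols) in each library (colours). Dbp defines the classes, Arntl and Clock are lower and Per2, Per3, Cry2, Nr1d1 and Nr1d2 higher in cells with Dbp UMIs on 8 of 8 lines, and Cry1 (lower) and Per1 (higher) on 7 of 8.

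Few genes differed as much between these classes. Of 9822 genes with a mean of at least 5 CPM other than Dbp, 16 were at least 1.5-fold higher in cells with Dbp UMIs in both libraries, which is 0.163%, and 14 were lower, 0.143%, so that 0.305% differed by that fold in either direction. Of the 9 other members, 5 were among the higher genes (Per2, Per3, Cry2, Nr1d1 and Nr1d2) and 2 among the lower (Arntl and Cry1). The higher genes also held Bhlhe41 (ratios 3.2 and 3.79), Hlf (2.9 and 3.43), Tef (2.58 and 2.42) and Bhlhe40 (2.15 and 3.8), which come from the lists of other clock components and output genes. The rest of the 16 were Cldn11, Tspan4, Gpr146, Lefty1, Itga1, Tmem86a and Rasd1. The lower genes were Arntl and Cry1, the 4 haemoglobin genes, and Kcnk2, Gdf15, Stmn1, Cxcl10, Cd83, Cox6b2, Plin1 and Ermp1. These names were taken after their values were seen.

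Genes of the lists outside the clock did not pass that fold in the same direction in both libraries. None did of 8 glucocorticoid receptor targets, 18 early response genes, 9 cAMP genes, 9 heat shock genes and 8 steroid synthesis genes. Some shifted in opposite directions between the libraries, as Nr4a2 (ratios 1.5 and 0.619) and Sik1 (1.24 and 0.499) did. Star (1.32 and 1.26) was higher and Mrap (0.796 and 0.722) lower in both libraries by less than that fold. The median log2 ratio over the 9 members was 0.78 and 0.91, and over all genes 0.003 and 0.0087. Cells without and with Dbp UMIs had medians of 18481.5 and 18378 UMIs in library 1 and 16285 and 15740 UMIs in library 2. Early response UMIs were found in 47.2% and 47.3% of the cells in library 1 and in 72.5% and 67.1% in library 2. Haemoglobin transcripts differed more than these readouts, with 474.3 and 8.43 CPM in library 1 and 538.9 and 0.282 CPM in library 2. In cells with no haemoglobin UMI, 5 members were still at least 1.5-fold higher and 2 lower in both libraries. The labels do not tie cells to animals, so differences between cells and between pooled animals cannot be told apart.

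**Figure D5:**
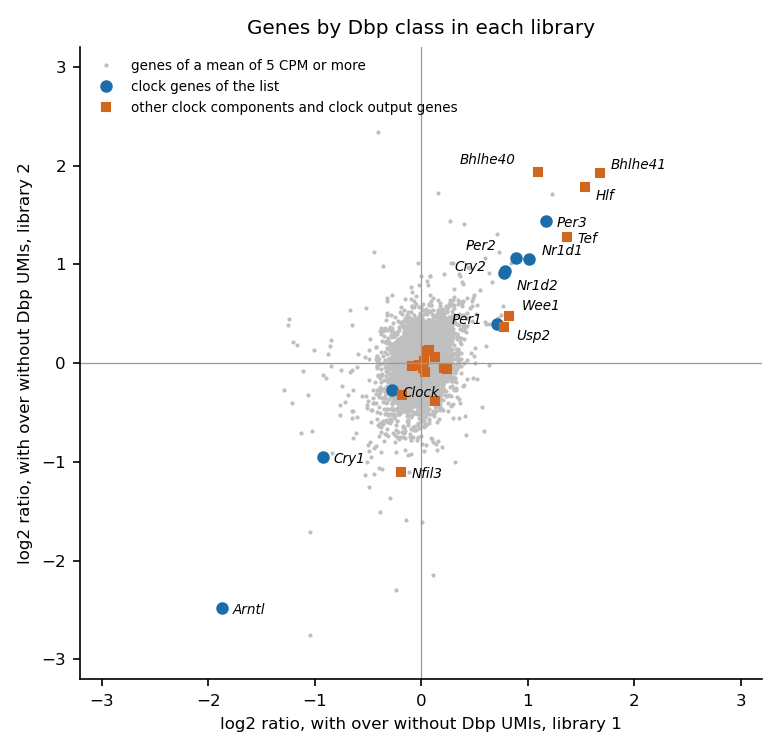
Log2 ratio of cells with at least 2 thinned Dbp UMIs to cells with none, library 1 on the x axis and library 2 on the y axis, 1 point per gene of at least 5 CPM, with clock genes in blue and genes of the lists of other clock components and output genes in orange. Most genes lie near 0, Per3, Nr1d1, Bhlhe41, Hlf and Tef lie in the upper right and Arntl in the lower left, and 5 genes (Cxcl10 and the haemoglobin genes) fall outside the axes.

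For the 4 members with the widest range over the 12 sums, the genes with the most similar pattern of log2 CPM were listed among 6695 genes of at least 20 CPM. Cry1 was followed most closely by Inpp4a (Pearson r 0.98), Atrnl1 (0.977) and Fam76a (0.97). Nr1d1 was followed by Morn2 (0.926), Hes1 (0.924) and Rab11fip2 (0.919). Per3 was followed by Meis1 (0.95), Chd9 (0.935) and Uhrf2 (0.928), and Per1 by Tubgcp3 (0.901) and Acsl5 (0.898). The sums share 2 libraries and 6 groups, so these values describe likeness over them only. The Cry1 pattern includes Aldh1a1-high sums of 3 and 2 UMIs, and the Per1 pattern includes co-expressing sums of 5 and 5 UMIs.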

How the data were processed

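Single cells of mouse adrenals were captured with the 10x 3′ kit version 3.1, at a target of 10000 cells, in 2 libraries of 1 group. The deposited values are UMI counts per gene and barcode, which the authors obtained from Cell Ranger with build mm10, per the submitters' processing notes. The software version is 3.1.0 per the file headers, and the strand setting and cell calling are not given in the sources used here. Of the 31057 features, 31011 matched GENCODE vM21, and all sample columns were used.

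The filter on cells asked for 5000 UMIs, 500 genes and no more than 30% of UMIs from mitochondrial genes. Doublet candidates (scrublet in scanpy 1.11.5, top 0.8% per 1000 barcodes, 203 and 42 cells) and cells with UMIs of 3 or more of 10 leukocyte genes were removed. Free RNA was not subtracted. UMIs were summed per cell group and library. A quasi-likelihood model in edgeR 4.0.16 (R 4.3.3, TMM scaling, low-count filter) with terms for cell group and library was fitted to 12 sums and 11774 genes, with Benjamini-Hochberg adjustment over all of them and 5 residual degrees of freedom. Library is the block because every group was read from both libraries. The script was tested on simulated counts. Intervals are exact at 95% (Poisson for counts) and cover counting error only. DESeq2 1.42.0, other scaling, filters, cut-offs and thinning to 5000 UMIs were alternatives.

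Named genes were the 10 members, up to 3 genes of each list with the largest difference among those past the threshold, and the 3 genes most like each of 4 members. A few results under this rule are not reported here. The members and lists were chosen with earlier results of these data known. Leaving out cells with early response, leukocyte or haemoglobin UMIs, and the classes by Dbp UMIs, were chosen after seeing the data.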

Additional observations from a re-analysis of the deposited data

How the results depend on the processing

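Cry1 and Nr1d1 kept their direction in Cyp11b1-high against Cyp11b2-high cells in all alternatives run, and Cry1 its call in those with a test. Over 11774 genes the main calls numbered 1799 higher and 2090 lower there, 1526 and 1763 for Aldh1a1-high against Cyp11b2-high cells, 886 and 816 for Aldh1a1-high against Cyp11b1-high cells, and 4516 for any difference. With no replicate block, that is, without pairing the groups by library, they were 403 and 392, 987 and 890, 357 and 205, and 1229. Nr1d1 (adjusted p = 0.0664), Nr1d2 (0.468) and Dbp (0.194, and 0.202 for Aldh1a1-high cells) were then not called. With cells thinned to 5000 UMIs the counts were 905 and 1131, 676 and 785, 311 and 295, and 2397, and Nr1d2 was not called in Cyp11b1-high cells (0.09). Cells with no early response UMI gave 902 and 1075 for Cyp11b1-high against Cyp11b2-high cells. The fit with no block used the same sums as the main fit, without the term for library. Thinning and leaving out cells used fewer reads or cells, and the cause beyond that was not tested. Between the libraries, TMM scaling left 3 members at 1.5-fold in place of 6 and turned the Dbp ratio to 0.9098. By Dbp UMIs, 5 to 6 members were higher and 2 lower in each library alone. With at least 4 Dbp UMIs the mean Arntl ratio over both libraries was 0.122, and with classes from unthinned CPM that of Per3 was 4.03. Leaving out a library in the fit over cell groups leaves no residual degrees of freedom, so those values have no test. Depth limits Cry1 and Hlf in Aldh1a1-high cells, of which there are 54.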
